A study of Homo sapiens with 9 samples.

Results

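The messenger RNA of 49 genes of the DNA replication machinery was followed in undifferentiated Caco-2 cells (uCaco-2) exposed to 2 chemical activators of the hypoxia-inducible factor (HIF) pathway. The genes were taken by symbol from the table of 60591 gene symbols, and all 49 were found and passed the filter on low counts. Caco-2 is an established line from a human colorectal adenocarcinoma. The control group had fresh medium, the CoCl2 group had 300 μM cobalt(II) chloride, and the OD group had 5 μM of an oxyquinoline derivative. Every group was exposed for 24 h, and 0.5% DMSO, the solvent of OD, was present in all 3 groups. Each group had 3 replicates, so 9 libraries were compared. One cell line, 1 dose of each compound and 1 time were measured, and the doses of the compounds differed. The labels do not say whether the replicates were separate cultures, so the p-values measure the spread between these libraries.

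Replication of DNA is prepared in G1 phase, when the origin recognition complex (ORC) together with CDC6 and CDT1 loads the MCM2 to MCM7 helicase onto DNA, a step called licensing. At the entry into S phase, MCM10, CDC45 and the GINS complex turn the loaded helicase into an active one, and the polymerases α, δ and ε copy the strands with the help of the PCNA clamp, the RFC clamp loader, the RPA single-strand binding complex, the flap nuclease FEN1 and the ligase LIG1. Ribonucleotide reductase, thymidylate synthase and thymidine kinase supply the deoxynucleotides. Cyclin E and the activator E2F factors drive the passage from G1 to S phase, and many replication genes are textbook E2F targets.

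The libraries held 15998136 to 18298190 counts in the control group, 16286502 to 24209427 with CoCl2 and 16387054 to 19623776 with OD. The epithelial markers EPCAM (738 to 972 counts scaled to a common library total, CPM), CDH1 (954 to 1449 CPM), KRT8 (4145 to 6603 CPM), KRT18 (2617 to 3661 CPM) and CDX2 (50.9 to 68.4 CPM) were present in all 9 libraries, while KRT20 was low at 1.06 to 5.99 CPM and lowest with CoCl2. The leukocyte gene PTPRC had 0 to 3 counts and the fibroblast gene COL1A2 had 0 to 1, while COL1A1 had 135 to 480 and the endothelial gene PECAM1 20 to 55. The differentiation marker VIL1 had 596 to 632 CPM in the control libraries, 108 to 119 with CoCl2 and 445 to 460 with OD, and its part in the results was not tested. CPM here were scaled by TMM factors, which set libraries to a common level for most genes. These factors were 0.770 to 0.795 in the CoCl2 libraries, 1.11 to 1.12 in the control libraries and 1.14 to 1.15 in the OD libraries. With library size alone in their place, the median change over all genes tested (log2, CoCl2 against control) moved from -0.049 to -0.55, so each direction with CoCl2 below is relative to that choice, and members whose direction turned under it are named.

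The 49 genes took 0.534% to 0.543% of all counts in the control libraries, 0.326% to 0.329% with CoCl2 and 0.509% to 0.514% with OD. Their summed TMM-scaled level was 4789 to 4912 CPM in the control libraries, 4135 to 4277 CPM with CoCl2 and 4456 to 4487 CPM with OD. On both scales the groups did not overlap, with the lowest values in the CoCl2 libraries. In bulk RNA, fewer cells in S phase and less RNA per cell cannot be told apart.

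Upstream sequences of the genes are shown first, because E2F factors are known to act at the promoters of many replication genes. RefSeq promoter windows (GRCh38.p14, 250 bases before to 50 bases after the transcript start) were at hand for 42 of the 49 genes. They were searched on both strands for the E2F-type letters TTTCCCGC or TTTGGCGC, for the NF-Y-type letters CCAAT, for the letters TTTGAA of the cell-cycle homology region, and for ACGTG, the core of a hypoxia response element. No set of letters contains another. The E2F-type letters stood in 18 of the 42 windows (42.9%), against 2.31% of 27305 windows in all and 3.58% of the 10907 windows of genes tested. CCAAT stood in 23 windows (54.8%, against 35.7% of all windows and 36.6% of those of genes tested), TTTGAA in 1 (2.38%, against 15.4% and 9.78%) and ACGTG in 12 (28.6%, against 21.6% and 26.5%). In a list of 68 other replication genes, the E2F-type letters stood in 7 of 56 windows (12.5%).

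Of the stretches given below, ORC1 and ORC6 belong to the members that rose most with CoCl2, and their windows hold CCAAT but not the E2F-type letters searched. CDT1 rose with both compounds and has E2F-type letters. Each line gives the bases from 120 to 1 before the transcript start, 5′ to 3′ on the gene's strand, with the E2F-type and CCAAT letters of either strand in capitals, so that ATTGG marks CCAAT on the opposite strand. ACGTG is not put in capitals. It stood in the windows of ORC6 (-168 to -164 from the start) and CDT1 (-165 to -161), outside the stretches given. The stretches were chosen with their values known.
ORC1, chr1:52404424-52404543, minus strand: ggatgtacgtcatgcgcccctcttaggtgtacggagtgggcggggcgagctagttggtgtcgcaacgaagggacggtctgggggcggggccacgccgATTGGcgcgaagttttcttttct
ORC6, chr16:46689539-46689658, plus strand: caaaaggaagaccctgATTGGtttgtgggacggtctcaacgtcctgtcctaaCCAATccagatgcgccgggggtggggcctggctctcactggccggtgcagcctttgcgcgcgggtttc
CDT1, chr16:88803669-88803788, plus strand: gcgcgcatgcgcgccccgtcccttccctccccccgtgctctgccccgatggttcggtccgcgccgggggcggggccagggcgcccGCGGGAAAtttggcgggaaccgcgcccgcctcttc

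The next stretches show the E2F-type letters in front of genes from the other steps of replication: the helicase subunit MCM6, the GINS subunit GINS2, the polymerase α subunit POLA1, the clamp PCNA, thymidylate synthase TYMS and the factor E2F1 itself. Again bases 120 to 1 before the start are given, except for MCM6 (170 to 1) and POLA1 (150 to 31). MCM6 holds the E2F-type letters in 2 places. The POLA1 stretch holds ACGTG on the opposite strand at -84 to -80 from the start, in small letters.
MCM6, chr2:135876444-135876613, minus strand: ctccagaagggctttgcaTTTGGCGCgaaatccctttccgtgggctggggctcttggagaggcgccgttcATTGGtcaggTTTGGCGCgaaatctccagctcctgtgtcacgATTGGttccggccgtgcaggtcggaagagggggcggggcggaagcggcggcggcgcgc
GINS2, chr16:85688955-85689074, minus strand: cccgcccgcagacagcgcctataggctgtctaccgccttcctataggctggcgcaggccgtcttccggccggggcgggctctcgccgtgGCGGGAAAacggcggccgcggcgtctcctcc
POLA1, chrX:24693768-24693887, plus strand: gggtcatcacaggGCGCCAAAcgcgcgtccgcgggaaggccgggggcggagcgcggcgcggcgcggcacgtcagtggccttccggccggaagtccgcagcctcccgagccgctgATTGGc
PCNA, chr20:5126623-5126742, minus strand: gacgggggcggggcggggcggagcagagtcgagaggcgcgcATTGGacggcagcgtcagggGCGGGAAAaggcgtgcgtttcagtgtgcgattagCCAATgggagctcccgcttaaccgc
TYMS, chr18:657533-657652, plus strand: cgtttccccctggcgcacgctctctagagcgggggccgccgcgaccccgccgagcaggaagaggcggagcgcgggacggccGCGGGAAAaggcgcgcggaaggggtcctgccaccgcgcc
E2F1, chr20:33686386-33686505, minus strand: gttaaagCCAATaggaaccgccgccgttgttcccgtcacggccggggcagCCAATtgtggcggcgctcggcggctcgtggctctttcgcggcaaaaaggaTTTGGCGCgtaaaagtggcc

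Genes with the E2F-type letters, CCAAT or ACGTG changed in both directions. With CoCl2, the 18 genes with E2F-type letters had a median log2 fold change of -0.64 (range -2.05 to 0.61) and the 24 without had -0.37 (range -1.90 to 1.42). With OD, the medians were -0.18 and -0.13. The 12 genes with ACGTG had a median of 0.095 with CoCl2 (range -1.46 to 1.42) and the 30 without had -0.94 (range -2.05 to 1.31). All members moved down with library size alone, so the sign of that 0.095 is relative to TMM factors. With OD, the ACGTG medians were 0.007 and -0.15. For CCAAT, the medians with and without were -0.56 and -0.88 with CoCl2, and -0.10 and -0.15 with OD. These are descriptions of letters in a short window, without a test, and the ranges overlapped throughout.

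The first comparison asked how CoCl2 changed the replication genes against control. Most of them fell: 34 of the 49 passed the test as lower and 13 as higher, with MCM5 and CCNE2 not passing. Over all 15944 genes tested, 42.8% were lower and 40.4% higher, so lower calls made up 69.4% of the members and higher calls 26.5%. The test was edgeR's quasi-likelihood test over the 9 libraries, with p-values adjusted by Benjamini-Hochberg over all genes and a threshold of 0.05. With a log2 fold change above 1 in size also required, 15 members fell and 2 rose, against 23.4% and 19.9% of all genes. The 15 were ORC5, MCM10, CDC45, GINS1, GINS2, GINS4, POLA2, PRIM1, POLD1, POLD2, POLE, POLE2, RFC4, TYMS and E2F1, and the 2 that rose were ORC1 and ORC6. The median log2 fold change of the members was -0.56, against -0.049 over all genes. There were 43 lower and 3 higher members (ORC1, ORC6 and RRM2) with library size alone, with MCM5 and CCNE2 among the lower. Under that scaling 9398 of all 15944 genes tested were lower and 4134 higher.

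The second comparison asked the same of OD. The changes were smaller: 26 members fell, 12 rose and 11 did not pass, against 33.3% lower and 32.3% higher over all genes. None of the 49 passed a log2 fold change of 1 in either direction, against 4.16% lower and 9.09% higher over all genes, and the members lay between -0.86 for ORC2 and 0.84 for CCNE2. Their median was -0.16, against -0.0105 over all genes. Both comparisons used the same control libraries, so they are given side by side and their agreement is not read as evidence.

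The third comparison set the compounds against each other directly. Relative to OD, CoCl2 gave lower levels of 32 members and higher levels of 12, with 5 not passing, against 43.2% and 40.2% of all genes. With a log2 fold change above 1 in size, 12 were lower and 2 higher, against 23.8% and 17.5% of all genes. The median was -0.39, against -0.054 over all genes. There were 42 lower and 4 higher members with library size alone, against 9802 lower and 3776 higher of all 15944 genes tested.

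**Figure D1:**
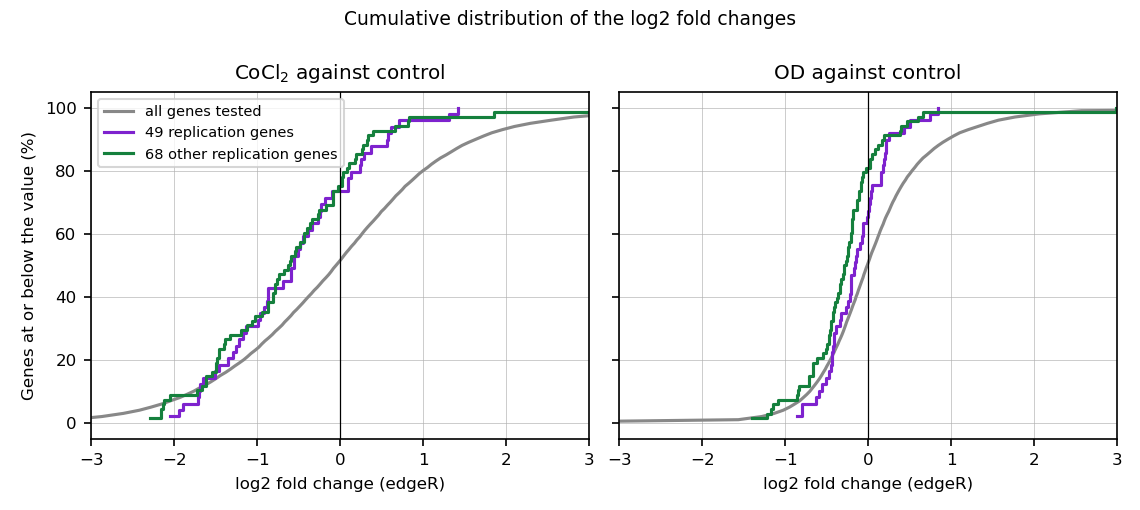
Cumulative share of genes (vertical axis, %) at or below each log2 fold change (horizontal axis, edgeR) for CoCl2 against control (left) and OD against control (right). Grey is all 15944 genes tested, purple the 49 replication genes and green the 68 other replication genes. With CoCl2 both lists lie to the left of all genes around their medians (-0.56 and -0.61 against -0.049), and with OD they stay closer to 0 (-0.16 and -0.28 against -0.0105).

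**Figure D2:**
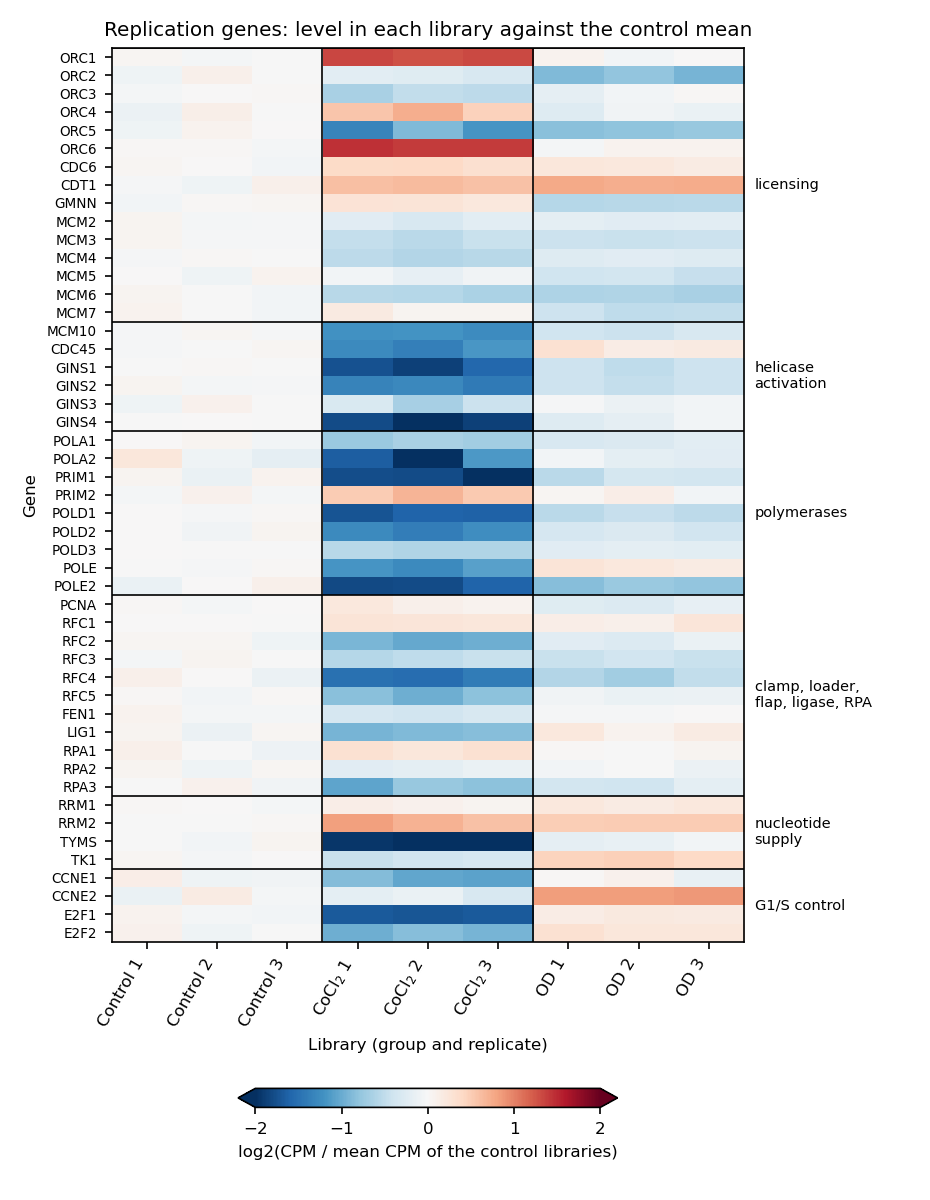
Level of each of the 49 genes (rows, by role) in each of the 9 libraries (columns), as log2 of its CPM over the mean CPM of the 3 control libraries, with blue below and red above the control mean and values beyond 2 in size drawn in the end colours. The 3 libraries of a group resemble each other, ORC1 and ORC6 are the strongest red rows with CoCl2, and TYMS, GINS4 and PRIM1 are the strongest blue rows.

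Of the 15 licensing genes, 7 rose with CoCl2, 7 fell and MCM5 did not pass, with a median of -0.10. These shares (46.7% each) lay near those of all genes, 40.4% higher and 42.8% lower. With library size alone, CDC6, GMNN and MCM7 turned lower, ORC4 and CDT1 did not pass, and ORC1 and ORC6 stayed higher. With OD, 2 rose (CDC6 and CDT1), 10 fell and 3 did not pass, with a median of -0.25. Lower calls were 66.7%, against 33.3% of all genes with OD, and higher calls 13.3%, against 32.3%. Relative to OD, 8 were higher with CoCl2 (53.3%, against 40.2% of all genes) and 4 lower (26.7%, against 43.2%), with a median of 0.17. Of those 8, CDC6 and MCM5 turned lower with library size alone, and ORC2 and MCM7 did not pass. Within ORC, ORC1, ORC4 and ORC6 rose with CoCl2 and ORC2, ORC3 and ORC5 fell. The median of the 6 ORC genes was 0.16 with CoCl2 and turned to -0.35 with library size alone.

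ORC6, the smallest ORC subunit, measured 56.2, 56.6 and 53.8 CPM in the control libraries, 152, 146 and 147 CPM with CoCl2 and 54.2, 58.3 and 58.1 CPM with OD. All 3 CoCl2 libraries lay far above the other 6, while control and OD overlapped. The log2 fold change was 1.42 (SE 0.049, adjusted p = 5.33e-36) with CoCl2 and 0.03 (adjusted p = 0.593) with OD. ORC1, the subunit that carries the ATPase activity of the complex, measured 38.9, 37.1 and 37.9 CPM in the control libraries, 95.7, 91.8 and 94.8 CPM with CoCl2 and 39.6, 36.7 and 38.0 CPM with OD. Its pattern was the same, with a change of 1.31 (SE 0.054, adjusted p = 4.29e-32) with CoCl2 and 0.01 (adjusted p = 0.926) with OD. CoCl2 libraries exceeded OD libraries for both (log2 difference 1.39 for ORC6 and 1.30 for ORC1). ORC1 and ORC6 stayed higher with library size alone, at 0.81 and 0.91.

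ORC5 went the other way, with 25.9, 28.7 and 27.4 CPM in the control libraries, 10.9, 14.8 and 12.1 CPM with CoCl2 and 15.3, 15.7 and 16.2 CPM with OD. No treated library reached the control range, and the change was -1.13 (SE 0.084, adjusted p = 2.07e-19) with CoCl2 and -0.80 (SE 0.077, adjusted p = 2.52e-14) with OD. ORC2 measured 46.6, 53.2 and 49.1 CPM in the control libraries, 42.9, 41.9 and 39.6 CPM with CoCl2 and 27.1, 28.9 and 26.1 CPM with OD. Its order was control, then CoCl2, then OD without overlap, with changes of -0.26 (SE 0.06, adjusted p = 7.1e-05) and -0.86 (SE 0.061, adjusted p = 1.35e-19). ORC2 was lower with OD than with CoCl2 (log2 difference of CoCl2 against OD 0.60, adjusted p = 6.37e-13), a call lost with library size alone (0.049, adjusted p = 0.480). ORC3 fell with CoCl2 (log2 fold change -0.56, adjusted p = 8.86e-13) and did not pass with OD (log2 fold change -0.07, adjusted p = 0.272), and ORC4 rose with CoCl2 (log2 fold change 0.58, adjusted p = 1.36e-12) and fell with OD (log2 fold change -0.15, adjusted p = 0.0337). The CoCl2 call for ORC4 was lost with library size alone (0.073, adjusted p = 0.300). The call for ORC4 with OD was lost without control replicate 2 or 3 or OD replicate 1 or 3 (adjusted p = 0.0534 to 0.254).

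The loading factors and their inhibitor responded differently from one another. CDT1, which brings the MCM helicase to ORC, measured 68.3, 65.4 and 74.4 CPM in the control libraries, 105, 108 and 104 CPM with CoCl2 and 118, 115 and 116 CPM with OD. The control libraries were the lowest and the OD libraries the highest, with changes of 0.61 (SE 0.05, adjusted p = 1.65e-17) with CoCl2 and 0.75 (SE 0.048, adjusted p = 2.1e-21) with OD. The CoCl2 value of CDT1 was 0.10 and did not pass with library size alone (adjusted p = 0.0573). CDC6, the partner ATPase of ORC in loading, changed by 0.37 (adjusted p = 1.61e-11) with CoCl2, a direction that turned to -0.14 with library size alone, and by 0.20 (adjusted p = 4.6e-05) with OD. GMNN, or geminin, which binds and blocks CDT1, was 0.25 (adjusted p = 5.43e-06) with CoCl2 (-0.26 with library size alone) and -0.56 (adjusted p = 1.38e-15) with OD. The difference between the compounds was 0.80 (adjusted p = 3.91e-23) for GMNN and -0.14 (adjusted p = 0.00613) for CDT1, and with library size alone 0.26 and -0.68.

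The 6 genes of the MCM helicase all fell with OD, with changes between -0.63 for MCM6 and -0.21 for MCM2. Over all genes tested, 33.3% were lower with OD. With CoCl2, MCM2, MCM3, MCM4 and MCM6 fell (-0.25 for MCM2, -0.48 for MCM3, -0.56 for MCM4 and -0.59 for MCM6), MCM5 did not pass (log2 fold change -0.10, adjusted p = 0.0614) and MCM7 was 0.10 (adjusted p = 0.0273), which turned to -0.41 with library size alone and to -0.0014 with upper-quartile factors. MCM2 measured 151, 142 and 143 CPM in the control libraries, 124, 117 and 126 CPM with CoCl2 and 127, 125 and 126 CPM with OD. The treated libraries lay below the control range and overlapped each other, with changes of -0.25 (SE 0.045, adjusted p = 9.67e-07) and -0.21 (SE 0.044, adjusted p = 2.68e-05). For the 6 MCM genes the median difference of CoCl2 against OD was -0.0006, with 2 higher, 1 lower and 3 not passing, and MCM7 was 0.57 (adjusted p = 2.65e-19). Higher calls were 33.3%, against 40.2% of all genes, and lower calls 16.7%, against 43.2%. With library size alone, MCM7 was 0.022 (adjusted p = 0.609) and the other 5 passed as lower with CoCl2 than with OD, from -0.86 for MCM4 to -0.24 for MCM5. Under that scaling 9802 of all 15944 genes were lower with CoCl2 than with OD. With CoCl2, MCM5 passed without control replicate 2 (adjusted p = 0.00878), and MCM7 did not pass without control replicate 2 or 3 or CoCl2 replicate 1 (adjusted p = 0.0864 to 0.214). MCM5 also passed as lower than control with library size alone (-0.60, adjusted p = 8.36e-16) and with upper-quartile factors (-0.20, adjusted p = 0.000213).

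All 6 genes of helicase activation fell with CoCl2, 5 of them by more than 1 on the log2 scale, with a median of -1.30. Over all genes tested, 42.8% were lower with CoCl2 and 23.4% were lower by more than 1. With OD 4 fell (66.7%, against 33.3% of all genes), CDC45 rose and GINS3 did not pass, with a median of -0.28. The direct comparison gave lower levels with CoCl2 for all 6 (median -1.09), against 43.2% of all genes.

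GINS4 measured 22.3, 22.3 and 22.3 CPM in the control libraries, 6.47, 4.49 and 6.08 CPM with CoCl2 and 18.6, 19.6 and 21.4 CPM with OD. The CoCl2 libraries stood apart from the other 6, and the change was -1.95 (SE 0.1, adjusted p = 4.78e-27). With OD it was -0.17 (SE 0.076, adjusted p = 0.0454), which passed only narrowly and was lost without any 1 of the control libraries or without OD replicate 1 or 2 (adjusted p = 0.0786 to 0.217). GINS1 measured 71.6, 73.1 and 71.9 CPM in the control libraries, 21.5, 19.8 and 24.4 CPM with CoCl2 and 54.1, 50.9 and 54.1 CPM with OD. GINS2 measured 87.3, 81.8 and 82.8 CPM in the control libraries, 33.2, 34.4 and 31.4 CPM with CoCl2 and 63.3, 60.5 and 62.8 CPM with OD. In both genes the 3 groups did not overlap, with OD between control and CoCl2. The change was -1.71 (SE 0.063, adjusted p = 1.42e-34) for GINS1 and -1.35 (SE 0.056, adjusted p = 8.86e-32) for GINS2 with CoCl2, and -0.45 (SE 0.054, adjusted p = 8.25e-11) and -0.43 (SE 0.05, adjusted p = 2.31e-11) with OD.

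GINS3 had the smallest change of the 4 subunits, at 20.4, 22.7 and 21.5 CPM in the control libraries, 17.5, 13.6 and 15.9 CPM with CoCl2 and 21.3, 19.8 and 20.8 CPM with OD. Its fall with CoCl2 was -0.45 (SE 0.082, adjusted p = 1.45e-06), and the OD libraries overlapped the control libraries (log2 fold change -0.06, adjusted p = 0.474). MCM10, which helps to start the helicase, measured 84.7, 87.9 and 84.9 CPM in the control libraries, 37.0, 37.6 and 35.9 CPM with CoCl2 and 65.3, 63.5 and 69.1 CPM with OD. It fell in the same order as GINS1 and GINS2, with changes of -1.22 (SE 0.055, adjusted p = 5.08e-30) with CoCl2 and -0.38 (SE 0.05, adjusted p = 7.16e-10) with OD. CDC45, which joins the MCM ring and GINS in the active helicase, measured 36.4, 36.9 and 38.0 CPM in the control libraries, 15.3, 14.4 and 16.6 CPM with CoCl2 and 45.6, 41.3 and 42.2 CPM with OD. The CoCl2 libraries were below and the OD libraries above the control range, with changes of -1.26 (SE 0.072, adjusted p = 1.22e-24) and 0.22 (SE 0.06, adjusted p = 0.00125) and a difference between the compounds of -1.47 (adjusted p = 1.09e-28).

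Of the 9 polymerase and primase genes, 8 fell with CoCl2 (6 by more than 1 on the log2 scale) and PRIM2 rose, with a median of -1.30. Lower calls were 88.9%, against 42.8% of all genes, and falls by more than 1 were 66.7%, against 23.4%. With OD 6 fell (66.7%, against 33.3% of all genes), POLE rose and 2 did not pass, with a median of -0.27. Relative to OD, 8 were lower with CoCl2 (88.9%, against 43.2% of all genes). PRIM2 was higher, turning to -0.022 with library size alone.

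The primase subunits moved apart. PRIM1, the catalytic subunit that makes the RNA primer, measured 23.5, 20.6 and 23.8 CPM in the control libraries, 6.66, 6.58 and 5.19 CPM with CoCl2 and 15.5, 17.8 and 17.6 CPM with OD. Its groups did not overlap, with changes of -1.90 (SE 0.1, adjusted p = 2.31e-26) with CoCl2 and -0.41 (SE 0.079, adjusted p = 6.02e-06) with OD. PRIM2, the regulatory subunit, measured 21.9, 23.8 and 21.8 CPM in the control libraries, 31.9, 36.1 and 32.5 CPM with CoCl2 and 23.1, 24.8 and 21.6 CPM with OD. The CoCl2 libraries were above all others, with a change of 0.57 (SE 0.071, adjusted p = 8.11e-11), and OD overlapped control (log2 fold change 0.04, adjusted p = 0.605). The CoCl2 value of PRIM2 was 0.062 and did not pass with library size alone. The polymerase α subunits POLA1 and POLA2 fell with CoCl2, with changes of -0.69 (adjusted p = 5.47e-16) and -1.50 (adjusted p = 1.72e-11), the latter from a low level of 6.13, 4.95 and 4.66 CPM in the control libraries to 1.68, 1.32 and 2.36 CPM.

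POLD1, the catalytic subunit of the lagging-strand polymerase δ, measured 63.3, 62.1 and 64.4 CPM in the control libraries, 19.1, 20.8 and 20.7 CPM with CoCl2 and 43.4, 45.8 and 44.1 CPM with OD. POLE2, a subunit of the leading-strand polymerase ε, measured 25.2, 27.8 and 29.7 CPM in the control libraries, 7.90, 7.97 and 9.12 CPM with CoCl2 and 15.3, 16.5 and 15.9 CPM with OD. The 3 groups were apart in both genes, with OD in the middle. POLD1 changed by -1.65 (SE 0.063, adjusted p = 6.96e-34) with CoCl2 and -0.51 (SE 0.054, adjusted p = 9.2e-13) with OD, and POLE2 by -1.71 (SE 0.089, adjusted p = 6.31e-27) and -0.79 (SE 0.075, adjusted p = 1.47e-14). POLE, the catalytic subunit of polymerase ε, did not follow POLE2 with OD, with 181, 178 and 185 CPM in the control libraries, 80.1, 75.1 and 85.5 CPM with CoCl2 and 216, 211 and 204 CPM with OD. The OD libraries were above and the CoCl2 libraries below the control range (log2 fold changes 0.21, adjusted p = 1.26e-05, and -1.17, adjusted p = 7.94e-33), and the compounds differed by -1.39 (adjusted p = 6.77e-37). POLD2 and POLD3 fell with both, at -1.30 and -0.59 with CoCl2 and -0.34 and -0.21 with OD.

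Of the 11 genes for the clamp, its loader, the flap nuclease, the ligase and RPA, 8 fell with CoCl2 (only RFC4 by more than 1 on the log2 scale), and PCNA, RFC1 and RPA1 rose, each of which turned lower with library size alone (-0.37, -0.27 and -0.22). The median was -0.51. Lower calls were 72.7% of the 11, against 42.8% of all genes, and falls by more than 1 were 9.09%, against 23.4%. With OD, RFC1 and LIG1 rose, 5 fell (45.5%, against 33.3% of all genes) and 4 did not pass, with a median of -0.10. PCNA, the sliding clamp and a common marker of proliferation, changed little, by 0.13 (adjusted p = 0.00257) with CoCl2 and -0.22 (adjusted p = 3.55e-06) with OD.

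In the clamp loader, the large subunit RFC1 was 0.24 (adjusted p = 3.81e-06) with CoCl2 and 0.16 (adjusted p = 0.00205) with OD, while the 4 small subunits fell with CoCl2. RFC4 measured 51.1, 48.1 and 44.03 CPM in the control libraries, 16.98, 16.6 and 18.2 CPM with CoCl2 and 31.9, 29.3 and 34.1 CPM with OD. RFC2 measured 63.7, 63.4 and 58.3 CPM in the control libraries, 32.7, 30.6 and 31.4 CPM with CoCl2 and 52.8, 51.4 and 56.6 CPM with OD. In both, CoCl2 was lowest, OD intermediate and control highest, with no overlap. The changes with CoCl2 were -1.46 (SE 0.071, adjusted p = 3.47e-28) for RFC4 and -0.97 (SE 0.06, adjusted p = 3.95e-23) for RFC2, and with OD -0.59 (SE 0.062, adjusted p = 8.04e-13) and -0.21 (SE 0.054, adjusted p = 0.000598).

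RFC3 measured 61.2, 64.8 and 62.2 CPM in the control libraries, 42.2, 44.03 and 46.0 CPM with CoCl2 and 46.2, 48.2 and 46.0 CPM with OD. Its 2 treated groups overlapped below the control range, with changes of -0.51 (SE 0.056, adjusted p = 1.31e-12) and -0.42 (SE 0.054, adjusted p = 2.89e-10), and the difference between the compounds did not pass (log2 difference -0.08, adjusted p = 0.16, 95% interval -0.20 to 0.029). RFC5 fell with CoCl2 (log2 fold change -0.87, adjusted p = 5.23e-20) and did not pass with OD (log2 fold change -0.10, adjusted p = 0.0962). FEN1, which trims Okazaki fragment flaps, fell with CoCl2 (log2 fold change -0.35, adjusted p = 1.72e-10) and did not pass with OD (log2 fold change -0.01, adjusted p = 0.849).

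LIG1, which seals Okazaki fragments, measured 72.8, 64.6 and 71.7 CPM in the control libraries, 36.6, 38.0 and 38.8 CPM with CoCl2 and 80.3, 73.5 and 78.1 CPM with OD. The CoCl2 libraries were far below and the OD libraries just above the control range. It fell with CoCl2 (log2 fold change -0.88, SE 0.058, adjusted p = 7.63e-22). With OD it was 0.15 (SE 0.052, adjusted p = 0.00917), a call lost without control replicate 2 (adjusted p = 0.139) or without OD replicate 1 (adjusted p = 0.0681). RPA3 measured 42.1, 45.0 and 40.2 CPM in the control libraries, 20.5, 24.995 and 24.1 CPM with CoCl2 and 32.9, 32.2 and 37.1 CPM with OD. The 3 groups did not overlap, and it fell with both, with changes of -0.88 (SE 0.07, adjusted p = 7.05e-18) and -0.32 (SE 0.064, adjusted p = 1.15e-05). RPA2 measured 84.1, 76.4 and 83.2 CPM in the control libraries, 69.4, 71.1 and 74.1 CPM with CoCl2 and 77.9, 80.8 and 74.7 CPM with OD. The CoCl2 libraries were just below the control range and the OD libraries overlapped it. The fall of RPA2 with CoCl2 was small, -0.18 (SE 0.052, adjusted p = 0.00121), and with OD it did not pass (log2 fold change -0.06, adjusted p = 0.289). RPA1, the large subunit that binds single-stranded DNA, was 0.28 (adjusted p = 3.76e-08) with CoCl2 and 0.02 (adjusted p = 0.644) with OD.

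Among the 4 genes of nucleotide supply, TYMS and TK1 fell with CoCl2, and RRM2 and RRM1 rose. Each share was 50%, against 42.8% lower and 40.4% higher over all genes. With OD, RRM1, RRM2 and TK1 rose (75%, against 32.3% of all genes) and TYMS fell (25%, against 33.3%). TYMS, thymidylate synthase, which makes dTMP from dUMP, had the lowest log2 fold change of all 49 genes. It measured 55.8, 53.8 and 57.9 CPM in the control libraries, 14.4, 13.2 and 12.9 CPM with CoCl2 and 49.5, 50.2 and 53.5 CPM with OD. The CoCl2 level was 0.242 times that of control, a change of -2.05 (SE 0.07, adjusted p = 1.54e-36). With OD the change was -0.13 (SE 0.055, adjusted p = 0.033) with ranges just apart, and the call was lost without control replicate 1 or 3 or OD replicate 1 or 2 (adjusted p = 0.0880 to 0.143). Exons of other genes, the ENOSF1 gene on the opposite strand among them, cover 47.9% of the exon bases of TYMS.

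RRM2, the regulatory subunit of ribonucleotide reductase, measured 217, 218 and 221 CPM in the control libraries, 386, 355 and 329 CPM with CoCl2 and 308, 311 and 310.2 CPM with OD. RRM1, its large subunit, measured 251, 249 and 241 CPM in the control libraries, 270.3, 263 and 257 CPM with CoCl2 and 286, 276 and 287 CPM with OD. RRM2 was higher in every treated library than in any control library, with changes of 0.71 (SE 0.043, adjusted p = 2.29e-23) with CoCl2 and 0.50 (SE 0.043, adjusted p = 2.43e-16) with OD. RRM1 changed little, by 0.09 (SE 0.04, adjusted p = 0.0332) and 0.19 (SE 0.04, adjusted p = 2.08e-05), and its CoCl2 value turned to -0.41 with library size alone and to -0.0085 with upper-quartile factors. That call for RRM1 was also lost without control replicate 2 or 3, CoCl2 replicate 1 or OD replicate 1 or 2 (adjusted p = 0.0540 to 0.181). TK1, the salvage thymidine kinase, measured 136, 128 and 133 CPM in the control libraries, 97.2, 101 and 105 CPM with CoCl2 and 179.5, 183 and 174 CPM with OD. Here the compounds took opposite sides of the control range, -0.39 (SE 0.046, adjusted p = 1.7e-11) with CoCl2 and 0.44 (SE 0.043, adjusted p = 9.1e-14) with OD, with a difference of -0.82 (adjusted p = 9.27e-26).

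Of the 4 genes of G1/S control, E2F1, E2F2 and CCNE1 fell with CoCl2 and none rose, with a median of -0.95. Lower calls were 75%, against 42.8% of all genes. With OD, E2F1, E2F2 and CCNE2 rose (75%, against 32.3% of all genes) and CCNE1 did not pass, with a median of 0.22. All 4 were lower with CoCl2 than with OD (median -1.12), against 43.2% of all genes.

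E2F1, an activator of replication gene transcription, measured 77.5, 71.8 and 71.0 CPM in the control libraries, 23.0, 22.4 and 23.0 CPM with CoCl2 and 81.5, 84.4 and 83.1 CPM with OD. Its CoCl2 libraries lay near 23 CPM and its OD libraries just above the control range, with changes of -1.68 (SE 0.06, adjusted p = 2.11e-35) and 0.18 (SE 0.05, adjusted p = 0.00144). The difference between the compounds was -1.86 (adjusted p = 4.55e-38). E2F2, a second activator E2F, measured 12.7, 11.3 and 11.9 CPM in the control libraries, 6.10, 6.66 and 6.29 CPM with CoCl2 and 14.8, 14.1 and 14.004 CPM with OD. It followed E2F1 at a lower level, with -0.92 (SE 0.11, adjusted p = 5.7e-12) and 0.25 (SE 0.086, adjusted p = 0.00763). Its rise with OD did not pass without control replicate 2 (adjusted p = 0.0562) or with DESeq2 on the 9 libraries (adjusted p = 0.0659).

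CCNE1, a cyclin E that activates CDK2, measured 35.0, 30.1 and 30.4 CPM in the control libraries, 17.5, 15.6 and 15.2 CPM with CoCl2 and 32.5, 33.8 and 28.8 CPM with OD. It fell with CoCl2 (log2 fold change -0.99, SE 0.079, adjusted p = 4.95e-18), and the OD libraries overlapped the control libraries (adjusted p = 0.976). CCNE2, the other cyclin E, measured 7.26, 8.92 and 7.80 CPM in the control libraries, 6.97, 7.27 and 6.397 CPM with CoCl2 and 14.3, 14.2 and 14.6 CPM with OD. The OD libraries were above all others, and CoCl2 overlapped control. It was the member with the highest log2 fold change with OD, 0.84 (SE 0.094, adjusted p = 6.78e-12). With CoCl2, CCNE2 did not pass in the 9 libraries, -0.23 (SE 0.11, adjusted p = 0.0564), and passed without control replicate 1 (adjusted p = 0.0247). It also passed as lower with library size alone (-0.74, adjusted p = 9.69e-08) and with upper-quartile factors (-0.33, adjusted p = 0.0065). Exons of INTS8 on the opposite strand and other genes cover 37.1% of the exon bases of CCNE2.

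**Figure D3:**
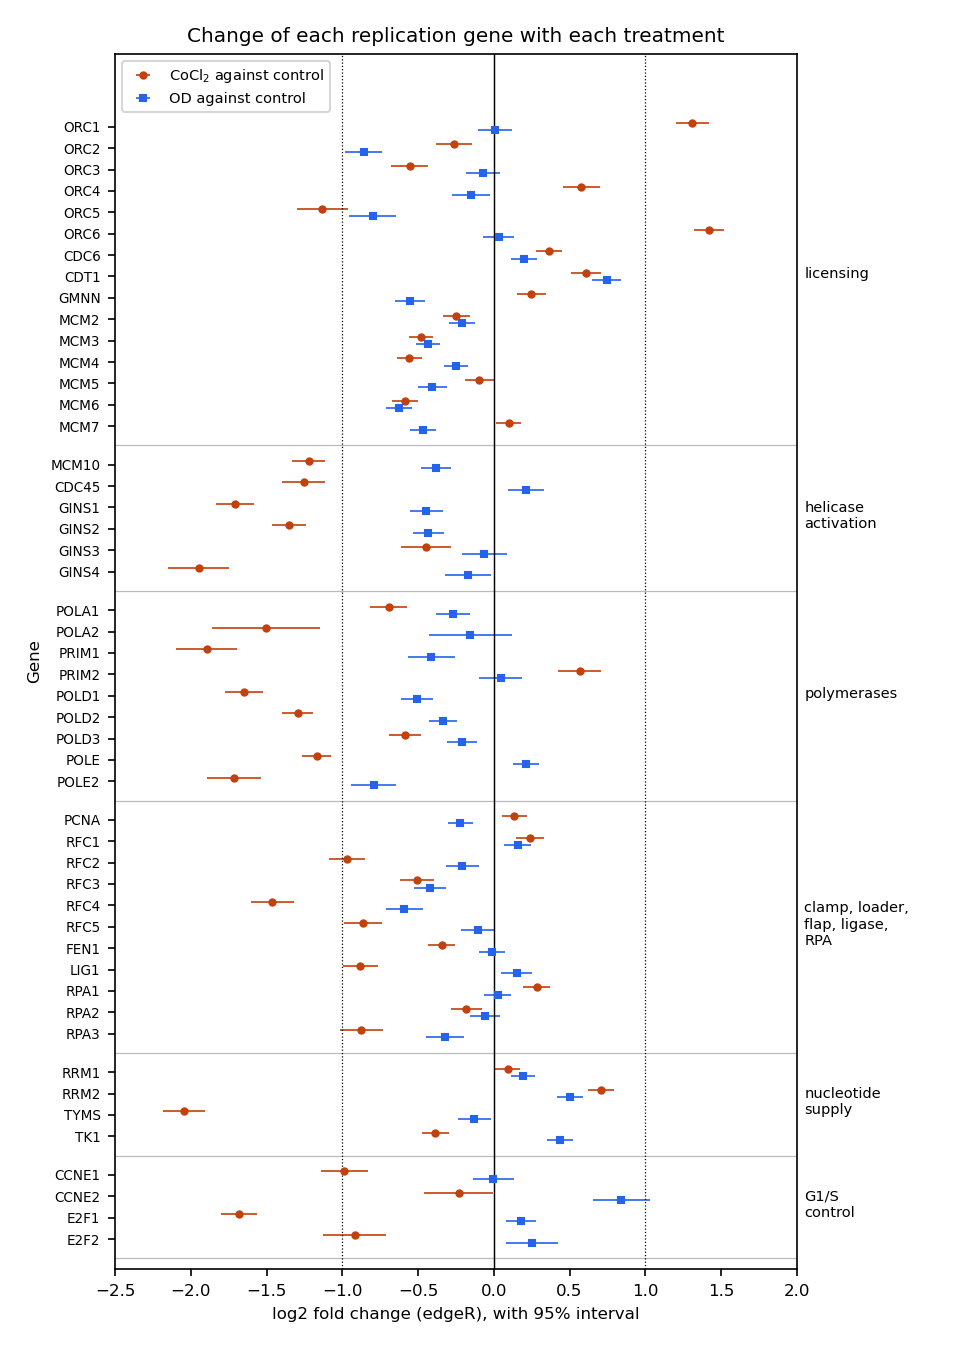
Log2 fold change against control (horizontal axis, edgeR, with 95% interval) of each of the 49 genes (vertical axis, by role) with CoCl2 (orange circles) and with OD (blue squares), from fits that share the control libraries. Dotted lines mark -1 and 1: 15 genes lie below -1 and 2 above 1 with CoCl2, and none beyond either line with OD.

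The subunits of each complex were then compared as levels per length, in CPM per kilobase of the canonical transcript. The ratios of the highest to the lowest subunit were taken within each library and do not depend on how libraries are scaled to each other. The orders, the overlaps of neighbours and the levels use TMM-scaled values. Orders and ratios between genes also rest on the canonical transcript lengths, such as 6547 bases for ORC4 and 1615 for ORC6. Which transcripts these cells made was not examined. In the control libraries the ORC subunits ran ORC6, ORC3, ORC5, ORC1, ORC2 and ORC4 from the highest to the lowest, with ORC1 and ORC2 overlapping. ORC6 stood at 34.4 ± 0.921 CPM per kilobase (SD, n = 3) and ORC4 at 6.27 ± 0.489. With CoCl2 the order became ORC6, ORC1, ORC3, ORC2, ORC4 and ORC5, with ORC6 at 92.01 ± 1.93, ORC1 at 30.1 ± 0.656 and ORC5 at 6.55 ± 1.03. The ratio of the highest to the lowest subunit was 5.51 ± 0.430 in control, 14.3 ± 2.43 with CoCl2 and 6.24 ± 0.154 with OD (SD, n = 3 each). The CoCl2 libraries, from 11.8 to 16.7, did not overlap the control libraries, from 5.17 to 5.99. Only ORC2 and ORC4 overlapped as neighbours with CoCl2, and no neighbours did with OD.

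The MCM subunits kept closer to one another. MCM7 was highest in all 3 groups, at 131 ± 5.82 CPM per kilobase in control, 139.7 ± 7.03 with CoCl2 and 94.3 ± 3.49 with OD (SD, n = 3), and MCM5 was lowest, at 33.4 ± 1.89, 31.2 ± 1.29 and 25.2 ± 0.908. Their ratio was 3.92 ± 0.304, 4.48 ± 0.177 and 3.75 ± 0.185. The order MCM7, MCM3, MCM6, MCM4, MCM2, MCM5 was shared by control and CoCl2, where MCM6 and MCM4 overlapped as neighbours, and with OD MCM4 came before MCM6.

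In GINS the ratio of the highest subunit, GINS2, to the lowest, GINS4, was 5.41 ± 0.189 in control, 8.58 ± 2.08 with CoCl2 and 4.51 ± 0.334 with OD (SD, n = 3), with CoCl2 above the other libraries. GINS4 fell to 1.51 ± 0.279 CPM per kilobase with CoCl2 from 5.91 ± 0.00536 in control. GINS1 and GINS3 overlapped as neighbours with CoCl2 and did not in the other groups. The order of the RFC subunits changed with CoCl2, from RFC2 and RFC4, which overlapped, first and RFC1 last in control to RFC1 first and RFC5 and RFC4, which overlapped, last. RFC1 was then at 25.3 ± 0.311 CPM per kilobase and RFC4 at 12.7 ± 0.600, against 21.4 ± 0.0789 and 35.0 ± 2.60 in control. The ratio of RPA2 to RPA3 was 2.45 ± 0.25 in control and 2.93 ± 0.324 with OD, and with CoCl2 RPA1 was first, overlapping RPA2, at 4.20 ± 0.536 times RPA3.

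**Figure D4:**
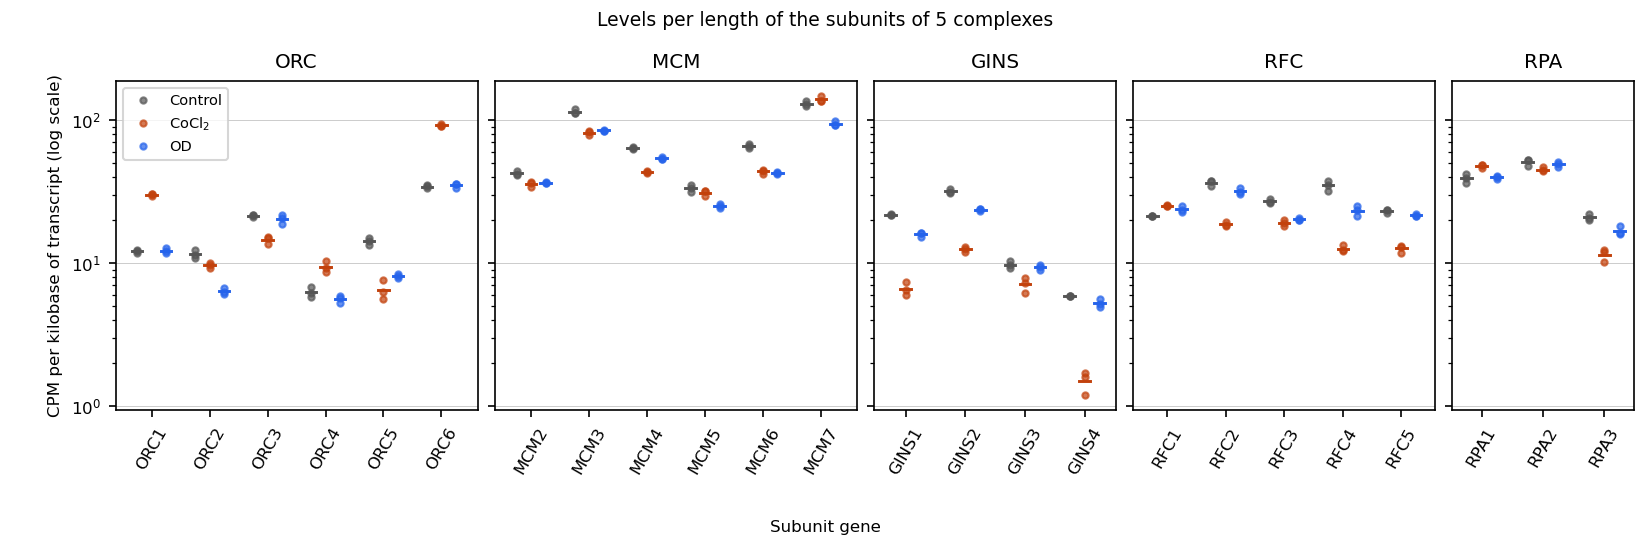
Level per length (vertical axis, CPM per kilobase of canonical transcript, log scale) of the subunits of ORC, MCM, GINS, RFC and RPA (horizontal axis), with 1 point per library and a bar at the mean of 3, in grey for control, orange for CoCl2 and blue for OD. In ORC, ORC6 and ORC1 stand above their control points with CoCl2 and ORC5 below, and GINS4 with CoCl2 is the lowest subunit drawn.

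The wider replication pathway was read from a list of 68 other genes, such as origin firing kinases, fork protection factors, checkpoint genes, further E2F and CDK genes and enzymes of nucleotide synthesis. With CoCl2, 46 fell, 12 rose and 10 did not pass, with a median of -0.61, and with OD 46 fell, 9 rose and 13 did not pass, with a median of -0.28. With a log2 fold change above 1 in size, 23 fell (33.8%, against 23.4% of all genes) and 2 rose (2.94%, against 19.9%) with CoCl2, and 5 fell (7.35%, against 4.16%) and 1 rose (1.47%, against 9.09%) with OD. By the test alone, lower calls made up 67.6% of the 68 with each compound (against 42.8% of all genes with CoCl2 and 33.3% with OD), and higher calls 17.6% with CoCl2 (against 40.4%) and 13.2% with OD (against 32.3%). Relative to OD, 40 were lower with CoCl2 (58.8%, against 43.2% of all genes) and 15 higher (22.1%, against 40.2%).

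The CDK inhibitor CDKN1A (p21) had the largest rise of the 68 with both compounds, by 5.09 with CoCl2 and 2.98 with OD, from 3.605, 4.27 and 4.38 CPM in the control libraries to 141, 134 and 142 and 35.4, 32.0 and 29.1. The repressor E2F6 (1.86) and the small polymerase δ subunit POLD4 (0.83) followed with CoCl2, and CHTF8 (0.66), a part of an alternative clamp loader, and POLD4 (0.60) with OD. Among the largest falls with CoCl2 were those of DUT, which removes dUTP (-2.29), and CAD, which starts pyrimidine synthesis (-2.16). The largest falls with OD were those of ATR, the kinase of the replication checkpoint (-1.39), TOP2A, a topoisomerase that untangles replicated DNA (-1.22), and CAD (-1.17). Each of these named changes passed the test (edgeR, adjusted p under 0.05). Exons of other genes cover 84.6% of the exon bases of CHTF8, 21.3% of POLD4 and 14.5% of DUT, so their counts may hold reads of neighbours.

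**Figure D5:**
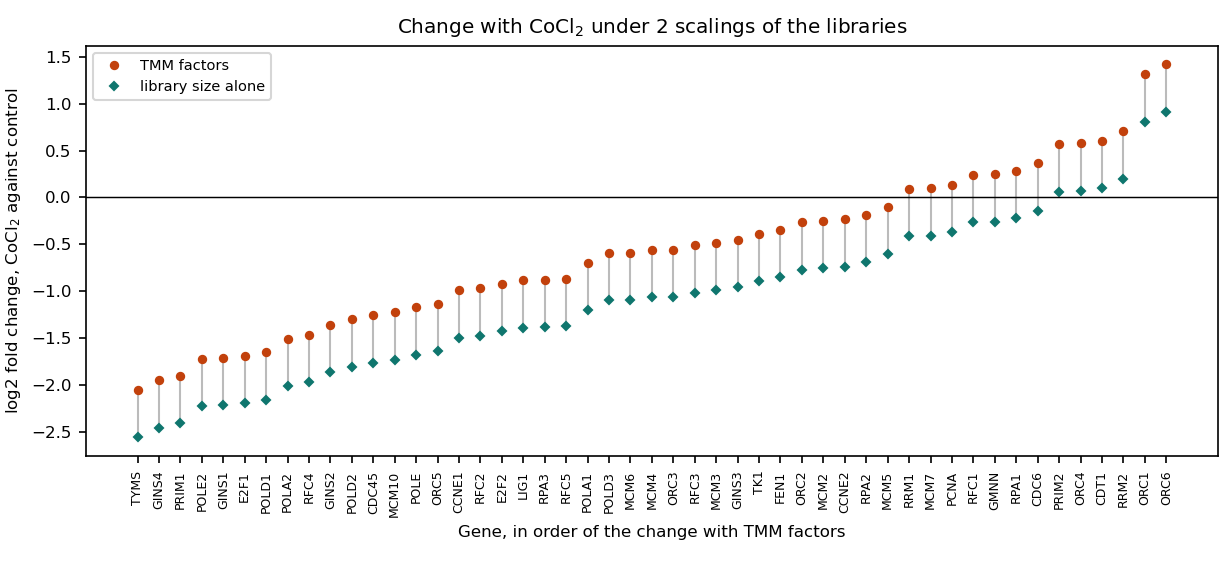
Log2 fold change with CoCl2 against control (vertical axis) of the 49 genes (horizontal axis, in the order of the TMM value) with TMM factors (orange circles) and with library size alone (green diamonds). All members move down by a like amount, and CDC6, GMNN, MCM7, PCNA, RFC1, RPA1 and RRM1 cross from above to below 0.

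The counts of a few members can hold reads of neighbours, and the strand setting of the counting was not stated. Beside TYMS and CCNE2, exons of other genes cover 23.6% of the exon bases of MCM2, 23.4% of GINS4, 21.3% of POLA2 and 19.1% of PRIM1. Most of the overlap of POLA2 (16.8% of its exon bases) and PRIM1 (15.1%) lies on the same strand, which no strand setting separates. Annotated processed copies of members, such as those of PCNA and RRM2, held 0 to 12 counts a library, against at least 3903 counts for PCNA and 3947 for RRM2.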

How the data were processed

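RNA from 9 samples of uCaco-2 was sequenced as poly(A) libraries from a stranded kit with single-end reads. Per the labels, the authors' notes name FastQC 0.11.9, cutadapt 2.10 and STAR 2.7.5b with GRCh38, and the deposited values are raw read counts per gene symbol, whole numbers without normalization. The counting tool and its strand setting are not given in the sources used here. The 49 members and all lists were chosen with earlier results of these data known.

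The counts were analysed with edgeR 4.0.16 (R 4.3.3), which kept 15944 of 60591 symbols by its expression filter, scaled the libraries by TMM (CPM are counts per library total times that factor) and fitted a robust quasi-likelihood model with 1 mean per group over all 9 libraries, with Benjamini-Hochberg adjustment over all genes. A gene rose or fell at an adjusted p under 0.05. A log2 fold change above 1 in size, which the study's own rule adds, was counted separately. The fit was tested on simulated counts of 14865 genes for CoCl2 against control, with 33 or 34 genes changed at each fold. It recovered 30 of 33 genes lowered to a fold of 0.5 and 28 of 33 lowered to 0.67. Of the raised genes it recovered 30 of 34 at a fold of 1.5 and 34 of 34 at 2, with 7 false calls. TMM scaling with as many genes changed as with CoCl2 here (40.4% higher and 42.8% lower) was not tested. Values in every library are given in each role group for the 3 members with the largest change in size with each compound and the one with the smallest over both. Of the 68 other genes, the 3 largest rises and falls with each compound are named, except for 1 result that is not reported here. POLE, POLA2 and CDC45 were given further values after the results were seen. Exon overlaps, positions and transcript lengths come from GENCODE release 44, and promoter sequences from RefSeq (GRCh38.p14). Alternatives were DESeq2 1.42.0, other scalings and filters, a fit per comparison, a replicate block and leaving out each library. Replicate pairs within a group differed by more than sampling noise.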

Additional observations from a re-analysis of the deposited data

How the results depend on the processing

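All alternatives were fixed together with the tests. Of the values for single members, 2531 stayed on the same side of the threshold (some that did not pass changed sign). A further 72 lost the call, 25 gained it and 18 changed sign. Those 18 passed before the sign change, after it or both. For CoCl2 against OD, PRIM2 did not pass after it (edgeR, adjusted p = 0.779 with library size alone). MCM6 had not passed before it (edgeR, adjusted p = 0.401 with TMM factors). With library size alone, CoCl2 against control gave -0.14 for CDC6, -0.26 for GMNN, -0.41 for MCM7, -0.37 for PCNA, -0.27 for RFC1, -0.22 for RPA1 and -0.41 for RRM1, and CoCl2 against OD gave -0.38 for CDC6, -0.24 for MCM5, -0.51 for MCM6, -0.022 for PRIM2, -0.19 for PCNA, -0.46 for RFC1, -0.29 for RPA1 and -0.34 for RRM2. Upper-quartile factors gave -0.0014 for MCM7 and -0.0085 for RRM1 with CoCl2, and -0.093 for MCM6 against OD. With library size alone, 3 members were higher with CoCl2 than in control and 4 higher than with OD, none of them beyond 1, where 0 were higher and 27 and 23 lower, and the members' medians were -1.06 and -0.93, with -0.12 for OD against control. Over all genes, the CoCl2 medians under that scaling were -0.55 against control and -0.60 against OD, and counts beyond 1 were not taken. The CoCl2 median was -0.51 with RLE factors, -0.66 with upper-quartile factors, -0.62 without a count filter and -0.59 with at least 10 counts in every library, and the median of CoCl2 against OD was -0.52 with upper-quartile factors and -0.45 without a count filter. By adjusted p alone, without the fold threshold, the counts are 13 higher and 34 lower for CoCl2, 12 and 26 for OD, and 12 and 32 for CoCl2 against OD. A test against a log2 fold change of 1 (glmTreat) gave 2 higher and 14 lower with CoCl2, 0 and 0 with OD, and 2 and 10 for CoCl2 against OD. Of all 15944 genes it gave 2568 higher and 2822 lower with CoCl2, 720 and 245 with OD, and 2202 and 2868 for CoCl2 against OD. Leaving out 1 library at a time kept the members' median between -0.57 and -0.56 for CoCl2 against control, between -0.17 and -0.12 for OD against control, and between -0.44 and -0.39 for CoCl2 against OD. Deviations of samples with the same replicate number had correlations of -0.018 to 0.067, against -0.069 to 0.062 for samples with different numbers. These values cannot tell whether same-numbered samples were handled together. A fit with the replicate block gave 13 higher and 35 lower with CoCl2, 12 and 26 with OD. Of all 15944 genes that fit gave 6464 higher and 6833 lower with CoCl2, 5204 and 5354 with OD. Calls also lost with library size alone were those of CDT1, ORC4 and PRIM2 with CoCl2, of ORC2 and MCM7 for CoCl2 against OD, and of GINS4, ORC4 and TYMS with OD. DESeq2 on the 9 libraries lost 4 calls with OD and 1 for CoCl2 against OD. Among those with OD were E2F2, ORC4 and GINS4 (DESeq2 adjusted p = 0.0659, 0.156 and 0.228). The cause was not tested.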
